A study of Mus musculus with 6 samples.

Results

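Wnt pathway modulators and target genes were followed in dorsal root ganglion (DRG) and neurofibroma tissue of mice with floxed Nf1 and the Cre recombinase DhhCre, with or without floxed Runx1 and Runx3. The genes are Axin2, Lef1, Tcf7, Tcf7l2, Nkd1, Notum, Rspo2, Rspo3, Sfrp1 and Wif1. They were chosen by symbol, and all 10 were found among the 24062 genes of the count files. Of these, 9 passed the filter on low counts, which left 15652 genes to be tested, and Notum did not. The data are 6 bulk RNA-seq libraries. The control libraries, numbered 1 to 3, came from Nf1fl/fl;DhhCre mice and are labelled DRG. The other 3 libraries are labelled Runx1/Runx3 double knockout neurofibroma tumors, with the genotype Rx1flfl;Rx3fl/fl;DhhCre. The extraction protocol adds Nf1fl/fl to that genotype and calls both tissues DRG/tumors, so both groups carry floxed Nf1 and DhhCre. All mice were on a C57BL/6-I129 background, and their age is not given in the sources used here. The Dhh promoter drives Cre in the Schwann cell lineage, so that cells outside that lineage, such as neurons, immune and endothelial cells, are expected to keep intact copies of the floxed genes; recombination by cell type was not measured here. The labels therefore differ between the groups in tissue as well as in genotype, and the 2 cannot be told apart.

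Wnt proteins are secreted, bind Frizzled receptors with the co-receptors Lrp5 and Lrp6, and stop the destruction complex of Axin, Apc and Gsk3 from marking beta-catenin for degradation. Beta-catenin then enters the nucleus and, on TCF/LEF proteins, turns on target genes, several of which are themselves inhibitors of the pathway. R-spondins raise the number of Frizzled receptors at the cell surface, whereas the secreted inhibitors Sfrp1, Wif1 and Notum bind or inactivate the Wnt protein. In Schwann cells the pathway is known for its part in myelin gene expression and in tumors of the nerve sheath.

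The libraries held 12439296 to 16682194 counts, so that 1 count was worth 0.0596 to 0.0822 CPM (counts per 1e6 counts of the TMM-scaled library). In the checks of the labels, Runx1 measured 131, 141 and 172 CPM in Nf1fl/fl;DhhCre tissue, whereas the double knockout libraries had 84.0, 78.9 and 185 CPM, of which the third was the highest of all 6 (log2 fold change -0.44, adjusted p = 0.370; -0.85 and 0.0290 without it). Runx3 was at 19.9, 15.1 and 29.9 CPM and at 13.5, 10.3 and 12.1 CPM, without overlap (log2 fold change -0.79, adjusted p = 0.104). Its adjusted p was below 0.05 in DESeq2 (-0.86, adjusted p = 0.0278) and without Nf1fl/fl;DhhCre library 2 (-0.99, adjusted p = 0.0430). The counts per gene do not separate deleted from intact exons. Runx2, which no label lists as floxed, fell from 141, 131 and 118 CPM to 52.8, 36.8 and 52.2 CPM (log2 fold change -1.46, adjusted p = 0.00764), and Nf1, floxed in both groups, had a log2 fold change of -0.06 (adjusted p = 0.809). Transcripts of skeletal muscle set apart the second library of each group, with a summed level of 3119 and 13858 CPM for 10 muscle genes against 7.18 to 89.3 CPM in the other 4. Schwann cell markers were present in every library, with Sox10 between 195 and 256 CPM.

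Other cell types also moved between the groups. In the counts that follow, a marker rose or fell if its limma-voom adjusted p was below 0.05. These counts stand beside 11.1% of all tested genes that rose and 8.22% that fell. In the libraries labelled double knockout, 17 of 18 DRG neuron markers rose (summed level 1328 to 2734 CPM against 6606 to 14884 CPM), as did 10 of 12 markers of myelinating Schwann cells (5208 to 6083 CPM against 11466 to 14972 CPM). By contrast, 10 of 11 macrophage markers fell (666 to 1513 CPM against 117 to 289 CPM), and so did 7 of 10 fibroblast markers (9365 to 10053 CPM against 3499 to 5745 CPM). Of 12 tested T and NK cell markers, 2 fell (28.5 to 75.6 CPM against 9.64 to 12.9 CPM). Of these, Klrb1c had 43, 27 and 30 counts in Nf1fl/fl;DhhCre tissue and 2, 1 and 0 counts in the double knockout. It reached the 10 counts of the low-count filter only in the group where it is high, and nothing is drawn from its call. Cd3g, at 0 counts in the first double knockout library, was too low to test. None of the 9 endothelial markers passed the test (180 to 252 CPM against 177 to 346 CPM). The neuron, macrophage and fibroblast markers thus go against the labels of tissue. Neuron markers were lower, and macrophage and fibroblast markers higher, in the libraries labelled DRG than in those labelled neurofibroma tumor. The paper on these data calls the Nf1fl/fl;DhhCre tissue tumors and the other DRG/tumors. For the double knockout it reports raised neuronal and lowered innate immune and extracellular matrix gene sets, the directions seen here. It also reports higher Pmp22 and lower Runx2 there. Here Runx2 fell, as given above, and Pmp22 rose (log2 fold change 1.21, limma-voom adjusted p = 0.00835). Of the 10 general Schwann cell markers, 2 rose and none fell (2138 to 2464 CPM against 2107 to 2801 CPM). The part of these shifts in the results on Wnt genes was not tested. In bulk tissue, fewer cells of a type and less RNA per cell cannot be told apart.

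Among the 9 tested Wnt genes, Nkd1 and Rspo2 were higher and Wif1 was lower in the libraries labelled double knockout. Each had an adjusted p below 0.05 and a change of over 2-fold in limma-voom, the definition of a differentially expressed gene (DEG) used here. For Rspo2 and Wif1, only the group with the higher level reached the 10 counts of the low-count filter in all 3 libraries. The 2 genes called higher stand beside 8.03% of all tested genes that were DEGs in that direction (11.1% on the adjusted p alone), and the 1 gene called lower beside 5.36% (8.22% on the adjusted p alone). The median log2 fold change of the 9 genes was 0.02, and that over all tested genes was 0.02 as well. The groups did not overlap for Axin2, Nkd1 and Rspo2, higher in the double knockout, against 21.8% of all tested genes, and for Tcf7 and Wif1, lower in it, against 20.5%. Without double knockout library 3, in which Runx1 was not reduced, the log2 fold changes were 1.09 for Nkd1 (adjusted p = 0.0600), 2.41 for Rspo2 (adjusted p = 0.0931) and -2.69 for Wif1 (adjusted p = 0.0911), so that all 3 kept their direction and none passed.

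**Figure D1:**
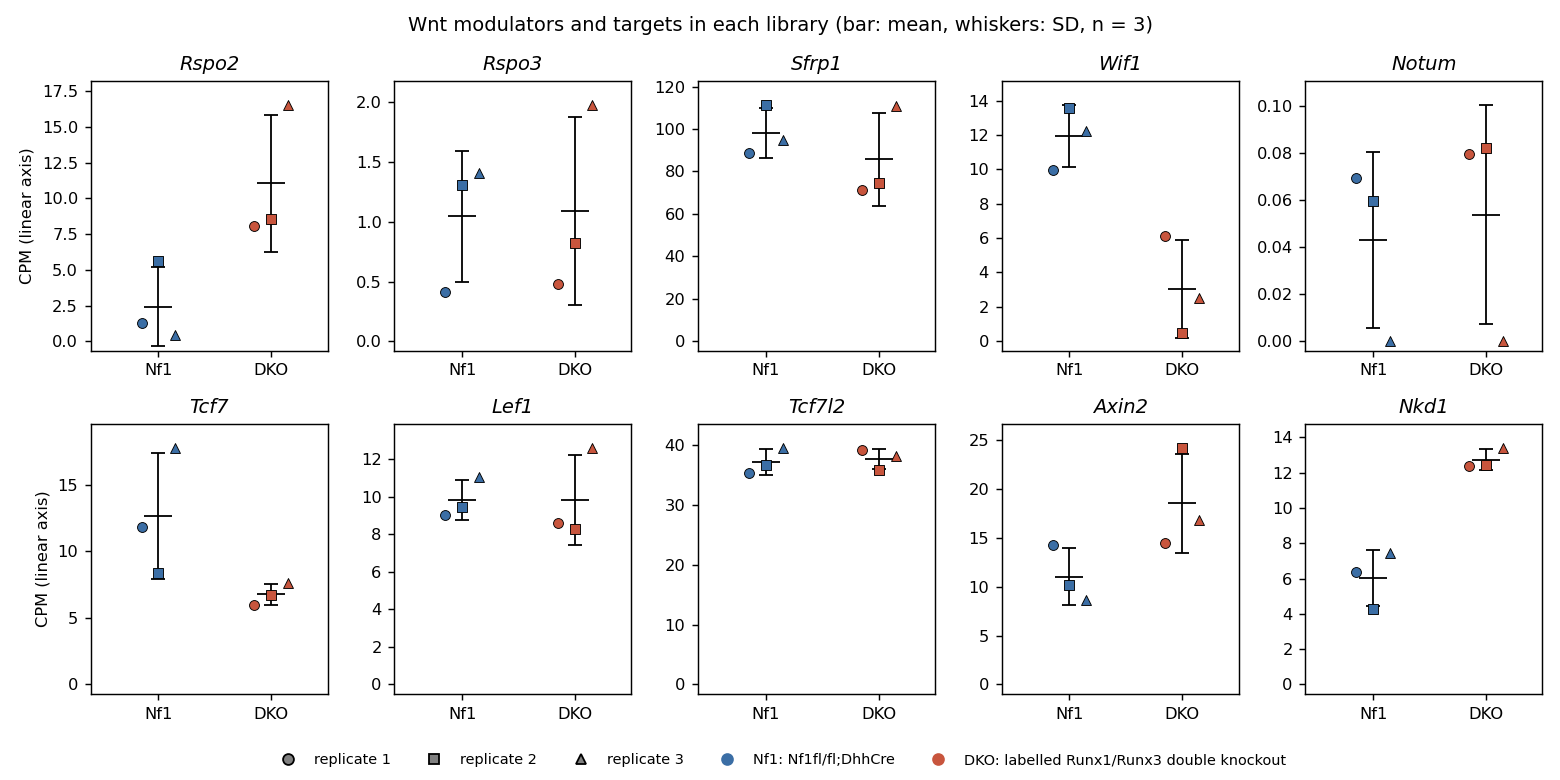
CPM of each of the 10 genes (linear axes, one panel a gene) in the 3 Nf1fl/fl;DhhCre libraries (blue) and the 3 libraries labelled double knockout (red), with the symbol giving the replicate number, a bar for the mean and whiskers for the SD. Nkd1 and Rspo2 lie higher and Wif1 lower in every double knockout library than in any Nf1fl/fl;DhhCre library, while Lef1, Tcf7l2, Rspo3 and Sfrp1 overlap.

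Rspo2, on mouse chromosome 15 (GRCm38 chr15:43020794-43170826, minus strand), encodes R-spondin 2, a secreted agonist that binds the Lgr receptors and the ubiquitin ligases Rnf43 and Znrf3. It was measured at 1.25, 5.60 and 0.449 CPM in Nf1fl/fl;DhhCre tissue (18, 94 and 7 counts) and at 8.05, 8.55 and 16.6 CPM in the double knockout (101, 104 and 251 counts). All 3 double knockout libraries were above the highest Nf1fl/fl;DhhCre library, which is the one with muscle transcripts. That library also had the highest sum of DRG neuron markers in its group, and these sums were 1426, 2734 and 1328 CPM in Nf1fl/fl;DhhCre tissue and 6606, 7640 and 14884 CPM in the double knockout, in the same order over the 6 libraries as Rspo2. Their part in the level of Rspo2 was not tested. The means were 2.43 ± 2.77 and 11.1 ± 4.78 CPM (SD, n = 3 each), and the fitted rise was 6.86-fold, a log2 fold change of 2.78 (SE 0.79, 95% interval 0.93 to 4.63, limma-voom adjusted p = 0.0485). The call depended on single libraries. It was lost in edgeR's quasi-likelihood test (log2 fold change 2.17, adjusted p = 0.105). It was also lost on leaving out any single library other than Nf1fl/fl;DhhCre library 2 (1.98 to 3.02, limma-voom adjusted p 0.0625 to 0.147). The call held without Nf1fl/fl;DhhCre library 2 (3.84, adjusted p = 0.0252) and without both muscle-containing libraries (3.95, adjusted p = 0.0363).

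Rspo3, its paralog on chromosome 10 (chr10:29452416-29535867, minus strand), was low throughout. Its level was 0.416, 1.31 and 1.41 CPM in Nf1fl/fl;DhhCre tissue and 0.478, 0.822 and 1.98 CPM in the double knockout, from 6 to 30 counts a library. The groups overlapped, and the log2 fold change of 0.04 (SE 0.75, 95% interval -1.71 to 1.79, adjusted p = 0.978) leaves room for a change of over 2-fold either way at this depth. An antisense gene, Gm48159, shares exon bases with Rspo3, and since the strand setting of the counting is not stated, its reads cannot be told apart from those of Rspo3.

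Among the other genes of the R-spondin module, Rspo1 and Lgr5 rose. Rspo1, the R-spondin with the highest level per length of exon, was at 11.2, 6.91 and 12.4 CPM in Nf1fl/fl;DhhCre tissue and at 27.5, 25.7 and 38.8 CPM in the double knockout (log2 fold change 1.63 with an SE of 0.28, adjusted p = 0.0137). Lgr5, an R-spondin receptor and itself a Wnt target, was at 9.78, 8.10 and 9.11 CPM against 21.0, 17.3 and 26.5 CPM (log2 fold change 1.26, SE 0.23, adjusted p = 0.0150). In both genes every double knockout library was above every Nf1fl/fl;DhhCre library, and both remained DEGs in 5 of the 6 fits that left out a library. Divided by exon length, the summed level of the 4 R-spondin genes, Rspo4 included, was 6.21, 5.09 and 7.07 CPM per kilobase in Nf1fl/fl;DhhCre tissue and 16.0, 16.0 and 24.6 in the double knockout. Of that sum Rspo1 made up 70.1% to 93.4% and 81.6% to 88.6%, and Rspo2 made up 3.94%, 21.5% and 1.24% against 9.83%, 10.5% and 13.2%. The share of Rspo2 thus overlapped between the groups even though its CPM did not. These family shares were chosen after the values were seen and were not tested. Of the 7 tested genes of the module, out of 9 in the list, 3 rose and none fell, beside 11.1% and 8.22% of all tested genes, with a median log2 fold change of 0.30. Lgr6, another R-spondin receptor, is named after its values were seen. It was at 39.1, 18.1 and 34.8 CPM in Nf1fl/fl;DhhCre tissue and at 9.08, 19.1 and 2.77 CPM in the double knockout, and its log2 fold change of -1.96 did not pass (adjusted p = 0.0696).

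Of the 2 secreted proteins of the set that bind Wnt, Wif1 fell and Sfrp1 did not pass the test. Wif1 (chr10:121033960-121100650, plus strand) encodes Wnt inhibitory factor 1, which binds Wnt proteins outside the cell. Its level was 9.99, 13.6 and 12.3 CPM in Nf1fl/fl;DhhCre tissue (144, 228 and 191 counts) and 6.14, 0.493 and 2.51 CPM in the double knockout (77, 6 and 38 counts). Only Nf1fl/fl;DhhCre tissue, where Wif1 is high, reached the 10 counts of the low-count filter in all 3 libraries. With every gene with a count above 0 tested instead, the limma-voom adjusted p was 0.0395. Every double knockout library was below every Nf1fl/fl;DhhCre library, although the 3 double knockout libraries spread widely and the lowest is the one with the most muscle transcripts. The sums of the fibroblast markers were 9365, 10053 and 9877 CPM in Nf1fl/fl;DhhCre tissue and 5745, 3499 and 3880 CPM in the double knockout, in the same order over the 6 libraries as Wif1, and their part in its level was not tested. The means were 11.9 ± 1.82 and 3.05 ± 2.86 CPM (SD, n = 3 each). The fitted level was 5.73-fold higher in Nf1fl/fl;DhhCre tissue, a log2 fold change of -2.52 (SE 0.66, 95% interval -4.06 to -0.98, limma-voom adjusted p = 0.0379). As for Rspo2, the call was lost in edgeR's quasi-likelihood test (log2 fold change -1.97, adjusted p = 0.0928). It was also lost on leaving out any single library other than double knockout library 1 (-2.69 to -1.64, limma-voom adjusted p 0.0629 to 0.0911). Without double knockout library 1 the call held (-3.17, adjusted p = 0.0320). Without both muscle-containing libraries the log2 fold change was -1.53 (adjusted p = 0.0851).

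Sfrp1 (chr8:23411502-23449632, plus strand), a secreted Frizzled-related protein that binds Wnt through a Frizzled-like domain, had the highest level of the 10 genes per length of exon. It was at 88.5, 111 and 94.6 CPM in Nf1fl/fl;DhhCre tissue and at 71.2, 74.7 and 111 CPM in the double knockout, and the highest libraries of the 2 groups were alike. The means were 98.2 ± 11.9 and 85.7 ± 22.0 CPM (SD, n = 3 each). The log2 fold change of -0.21 (SE 0.20, 95% interval -0.68 to 0.25, adjusted p = 0.484) did not pass the test, and its interval holds no change of 2-fold in either direction. Divided by exon length, Wif1 made up 16.9%, 18.0% and 18.9% of the sum of Sfrp1 and Wif1 in Nf1fl/fl;DhhCre tissue and 13.4%, 1.18% and 3.92% of it in the double knockout.

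Notum (chr11:120653788-120661175, minus strand) encodes a secreted enzyme that removes the lipid from Wnt proteins. It had 1, 1 and 0 counts in Nf1fl/fl;DhhCre tissue and 1, 1 and 0 counts in the double knockout. These counts are below the limit that a count of 0 allows (3 counts, 0.179 to 0.247 CPM for counting error only), so Notum could not be told from 0 at this depth in either group, and the antisense genes Notumos and Myadml2os overlap its exons.

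Across the 15 secreted inhibitors of the list, 11 were tested, 1 rose and 1 fell (beside 11.1% and 8.22% of all tested genes), and the median log2 fold change was 0.20. The gene that fell was Wif1. The gene that rose was Frzb, another Frizzled-related protein, which was at 18.2, 8.16 and 15.1 CPM in Nf1fl/fl;DhhCre tissue and at 44.1, 42.5 and 65.4 CPM in the double knockout (log2 fold change 1.95 with an SE of 0.32, adjusted p = 0.0127). Frzb was called whichever library was left out, and its fitted rise was 3.87-fold. Dkk3, which is named here after its values were seen, had a log2 fold change of 0.54 (adjusted p = 0.0986).

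**Figure D2:**
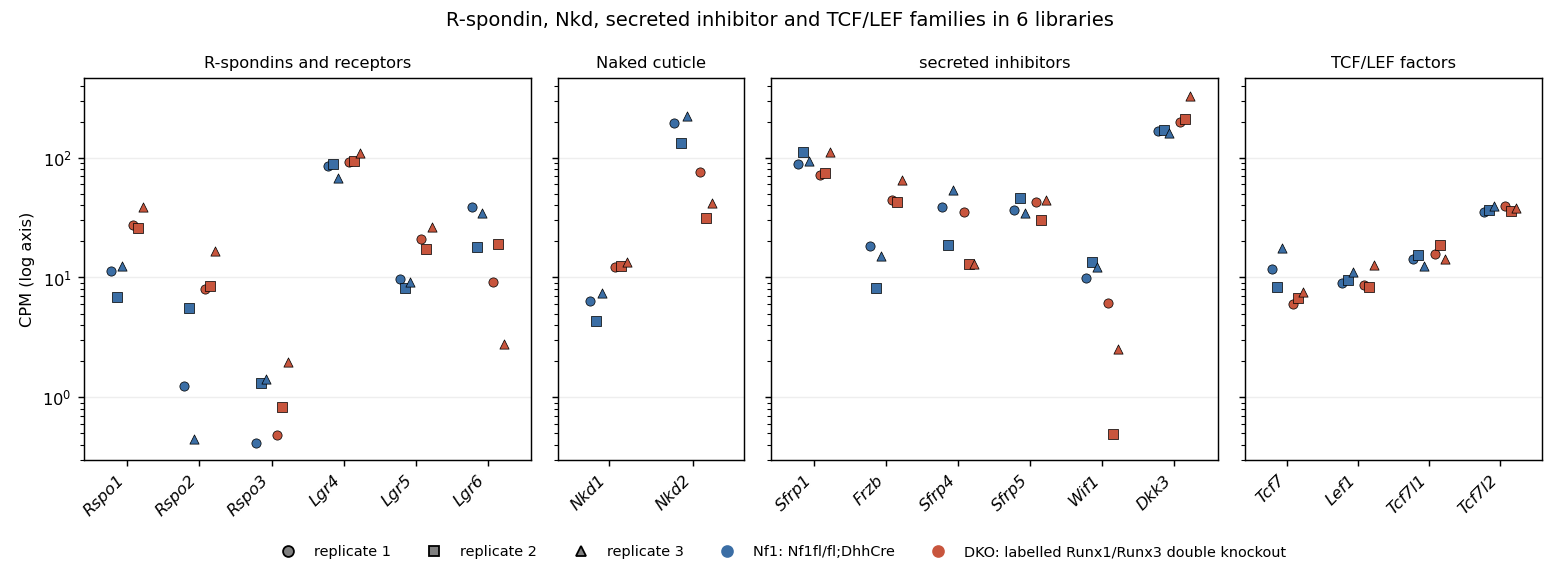
CPM of R-spondins and their receptors, Naked cuticle genes, secreted inhibitors and TCF/LEF factors (log axis) in each Nf1fl/fl;DhhCre library (blue) and each library labelled double knockout (red), with the symbol giving the replicate number. Rspo1 and Rspo2 lie higher in all 3 double knockout libraries, Nkd1 and Nkd2 shift in opposite directions, and of the secreted inhibitors Frzb lies higher and Wif1 lower.

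Nkd1 (chr8:88521354-88594884, plus strand) and Axin2 (chr11:108920349-108950783, plus strand) are feedback inhibitors, genes that Wnt signaling turns on and whose proteins dampen it. Nkd1, or Naked cuticle 1, binds Dishevelled. It was at 6.38, 4.29 and 7.44 CPM in Nf1fl/fl;DhhCre tissue (92, 72 and 116 counts) and at 12.4, 12.4 and 13.4 CPM in the double knockout (155, 151 and 203 counts). The double knockout libraries lay close together and all above the Nf1fl/fl;DhhCre libraries. The means were 6.04 ± 1.60 and 12.7 ± 0.588 CPM (SD, n = 3 each), a fitted rise of 2.18-fold (log2 fold change 1.12, SE 0.25, 95% interval 0.53 to 1.72, limma-voom adjusted p = 0.0256). The adjusted p stayed below 0.05 in all 7 other settings of test, scaling and filter but was above 0.05 without Nf1fl/fl;DhhCre library 1 (0.0746), double knockout library 2 (0.0661) or double knockout library 3 (0.0600), and without both muscle-containing libraries (log2 fold change 0.91, adjusted p = 0.0848). Without Nf1fl/fl;DhhCre library 2 the change was under 2-fold (log2 fold change 0.92, adjusted p = 0.0384).

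Nkd2, the other Naked cuticle gene, moved the opposite way. It was at 194, 134 and 222 CPM in Nf1fl/fl;DhhCre tissue and at 76.6, 31.2 and 42.1 CPM in the double knockout (log2 fold change -1.94 with an SE of 0.33, adjusted p = 0.0132). Divided by exon length, the sum of both genes was 41.6, 28.7 and 47.7 CPM per kilobase in Nf1fl/fl;DhhCre tissue and 18.6, 9.20 and 11.7 in the double knockout. Nkd1 made up 3.37%, 3.28% and 3.42% of that sum in the first group and 14.6%, 29.6% and 25.2% in the second. Nkd2 thus remained the more abundant of the pair in every library.

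Axin2, a scaffold of the destruction complex and a widely used readout of Wnt signaling, was at 14.3, 10.1 and 8.66 CPM in Nf1fl/fl;DhhCre tissue (206, 170 and 135 counts) and at 14.5, 24.2 and 16.8 CPM in the double knockout (182, 294 and 255 counts). The groups only just did not overlap, since Nf1fl/fl;DhhCre library 1 and double knockout library 1 were nearly equal. The means were 11.0 ± 2.92 and 18.5 ± 5.05 CPM (SD, n = 3 each). The log2 fold change of 0.75 (SE 0.28, 95% interval 0.10 to 1.39) did not pass the test after adjustment (limma-voom adjusted p = 0.0991), and it did not pass in any of the 7 other settings or on leaving out any library (0.55 to 0.96, adjusted p 0.0991 to 0.250). The antisense gene Gm11670 overlaps exons of Axin2.

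The TCF/LEF factors are the HMG-box proteins that bind DNA for beta-catenin. Tcf7 (chr11:52252371-52283014, minus strand), which encodes TCF1 and is also expressed in T cells, was at 11.8, 8.40 and 17.8 CPM in Nf1fl/fl;DhhCre tissue and at 5.98, 6.74 and 7.59 CPM in the double knockout. The groups did not overlap, but Nf1fl/fl;DhhCre library 2 was close to the double knockout. The means were 12.7 ± 4.74 and 6.77 ± 0.808 CPM (SD, n = 3 each), and the log2 fold change of -0.82 (SE 0.34, 95% interval -1.61 to -0.03, adjusted p = 0.132) did not pass in limma-voom. Its adjusted p was below 0.05 in DESeq2 (log2 fold change -0.91, adjusted p = 0.0380) and without Nf1fl/fl;DhhCre library 2 (-1.05, adjusted p = 0.0484). The summed level of the T and NK cell markers was 30.4, 28.5 and 75.6 CPM in the Nf1fl/fl;DhhCre libraries and 12.9, 10.1 and 9.64 CPM in the double knockout. It was highest in the library with the most Tcf7, in the same order as Tcf7 over the Nf1fl/fl;DhhCre libraries and in the opposite order over the double knockout libraries. The part of T cells in the level of Tcf7 was not tested.

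Lef1 (chr3:131110471-131224356, plus strand), a TCF/LEF factor that is also a Wnt target, was at 9.02, 9.47 and 11.0 CPM in Nf1fl/fl;DhhCre tissue and at 8.61, 8.31 and 12.6 CPM in the double knockout. Both groups had a mean of 9.84 CPM, with an SD of 1.06 and 2.40 (n = 3 each), and the log2 fold change was -0.00 (SE 0.24, 95% interval -0.56 to 0.56, adjusted p = 0.996). The antisense gene Gm43352 overlaps its exons. Tcf7l2 (chr19:55741820-55933654, plus strand), which encodes TCF4, was at 35.4, 36.8 and 39.6 CPM in Nf1fl/fl;DhhCre tissue and at 39.2, 35.9 and 38.2 CPM in the double knockout. It had the smallest SE of the 9 tested genes, with means of 37.2 ± 2.14 and 37.8 ± 1.67 CPM (SD, n = 3 each) and a log2 fold change of 0.02 (SE 0.13, 95% interval -0.29 to 0.33, adjusted p = 0.929). The intervals of both genes hold no change of 2-fold.

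Per kilobase of exon, Tcf7 made up 34.1%, 25.7% and 43.1% of the 4 TCF/LEF genes in Nf1fl/fl;DhhCre tissue and 19.5%, 20.8% and 23.5% in the double knockout. Tcf7l2 made up 30.6%, 33.7% and 28.7% against 38.2%, 33.1% and 35.3%, and Tcf7l1 made up 27.6%, 31.9% and 20.2% against 34.0%, 38.5% and 29.5%. Tcf7 had the largest share in Nf1fl/fl;DhhCre libraries 1 and 3, and in no double knockout library. None of the 12 TCF/LEF factors and nuclear partners of the list passed the test (median log2 fold change -0.01), beside 11.1% of all tested genes that rose and 8.22% that fell.

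**Figure D3:**
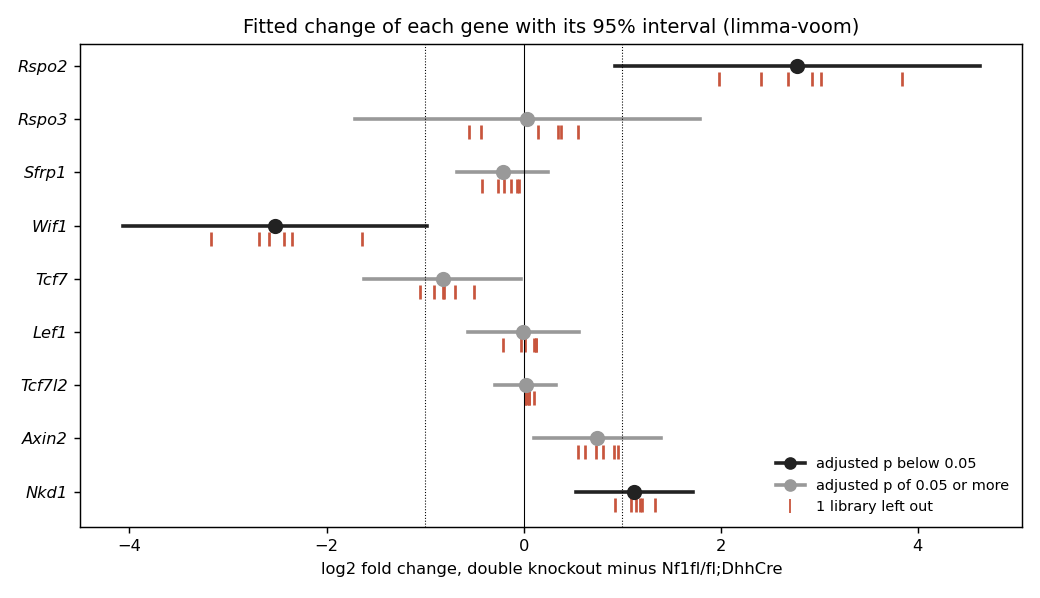
Fitted log2 fold change of the 9 tested genes (double knockout minus Nf1fl/fl;DhhCre) with its 95% interval from limma-voom, black where the adjusted p was below 0.05, and red ticks for the 6 fits that left out a library. Dotted lines mark 2-fold. Rspo2, Wif1 and Nkd1 are in black, and the estimates of Lef1 and Rspo3 fall on both sides of 0 when a library is left out.

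Per kilobase of exon, Sfrp1 had the highest level of the 10 genes in both groups, at 22.5 ± 2.72 CPM per kilobase in Nf1fl/fl;DhhCre tissue and 19.6 ± 5.03 in the double knockout (SD, n = 3 each, as for the means that follow), above every value of the other 9 genes. The order below it was not the same in the groups. In Nf1fl/fl;DhhCre tissue it ran from Wif1 (4.92 ± 0.749), Tcf7 (4.82 ± 1.81) and Tcf7l2 (4.24 ± 0.244) to Axin2 (2.0 ± 0.53), Nkd1 (1.32 ± 0.352), Lef1 (1.12 ± 0.120), Rspo2 (0.476 ± 0.542), Rspo3 (0.339 ± 0.177) and Notum (0.0179 ± 0.0156). In the double knockout it ran from Tcf7l2 (4.30 ± 0.190), Axin2 (3.36 ± 0.917), Nkd1 (2.79 ± 0.129) and Tcf7 (2.58 ± 0.308) to Rspo2 (2.16 ± 0.935), Wif1 (1.26 ± 1.18), Lef1 (1.12 ± 0.273), Rspo3 (0.354 ± 0.255) and Notum (0.0224 ± 0.0194). Neighbors below Sfrp1 overlapped in range, except Tcf7l2 and Axin2 in the first group, Lef1 and Rspo3 in the second, and Rspo3 and Notum in both.

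The sequence before a start of transcription was compared for the genes that RefSeq lists with a promoter. This placed the measured changes beside letters searched as TCF/LEF and RUNX motifs. An entry was matched for 6 of the 10 genes (Axin2, Lef1, Tcf7, Tcf7l2, Nkd1 and Wif1), with 11 windows of 250 bases before a start on GRCm38.p6. The TCF/LEF letters searched were CTTTGA on either strand, found in 13.8% of 32817 mouse promoter windows of that length. The RUNX letters were TGNGGT on either strand, with N any base, found in 40.1%. This pattern is looser than TGTGGT and TGCGGT, which the paper gives as RUNX consensus sites. The shorter TGTGG, by which the paper named putative RUNX sites of Pmp22, was not searched. A RUNX match here means a match to TGNGGT. Of the 11 windows, only 2 of Lef1 held either motif. One held a single RUNX match. The other, before an internal start of Lef1, held 2 TCF/LEF and 3 RUNX matches, of which the last 2 RUNX matches share a base. The RefSeq start of Nkd1 also lies inside the GENCODE gene, so that its window is not that of the outermost start. The windows of Nkd1, Wif1 and Axin2 held neither CTTTGA nor TGNGGT, which says only that these letters are not in those windows. The shorter TGTGG of the paper does occur in the Nkd1 window, and on the other strand, as CCACA, in that of Wif1. Both called genes with an entry, the feedback gene Axin2 and the Lef1 window with matches are printed 5′ to 3′, on the plus strand, at chr8:88527383-88527632 (Nkd1, internal start), chr10:121033754-121033959 (Wif1, the first 206 bases of its window), chr11:108920099-108920348 (Axin2) and chr3:131156044-131156293 (Lef1, internal start), with motif letters in capitals. In the Lef1 window TCAAAG is the TCF/LEF motif read on the other strand. ACCTCA and ACCCCA match TGNGGT on the other strand, where they read TGAGGT and TGGGGT. Neither is the TGTGGT or TGCGGT of the paper.
Nkd1: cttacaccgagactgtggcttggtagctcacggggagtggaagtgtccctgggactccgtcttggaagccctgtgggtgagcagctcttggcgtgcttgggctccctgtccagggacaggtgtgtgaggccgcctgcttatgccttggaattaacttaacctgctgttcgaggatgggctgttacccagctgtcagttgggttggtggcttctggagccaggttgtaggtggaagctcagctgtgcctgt
Wif1: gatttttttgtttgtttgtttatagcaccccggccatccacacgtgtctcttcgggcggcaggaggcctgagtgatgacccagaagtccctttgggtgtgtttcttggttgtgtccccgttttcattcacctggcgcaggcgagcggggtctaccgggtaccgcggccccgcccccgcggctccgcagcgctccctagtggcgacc
Axin2: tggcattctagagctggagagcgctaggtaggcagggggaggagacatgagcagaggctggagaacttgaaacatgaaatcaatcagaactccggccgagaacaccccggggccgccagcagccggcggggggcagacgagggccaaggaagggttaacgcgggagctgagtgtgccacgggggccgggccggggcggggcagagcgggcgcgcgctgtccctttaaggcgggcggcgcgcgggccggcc
Lef1: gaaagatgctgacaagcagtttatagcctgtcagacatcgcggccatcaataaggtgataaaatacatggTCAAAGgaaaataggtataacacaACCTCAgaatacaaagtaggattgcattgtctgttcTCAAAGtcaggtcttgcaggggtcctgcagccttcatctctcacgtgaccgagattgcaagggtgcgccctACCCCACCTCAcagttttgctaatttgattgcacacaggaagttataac
A match is a description of the letters and not of binding. Lef1, the gene with matches to both sets of letters searched, had the same mean level in both groups.

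The rest of the pathway was read from lists by role. Over 110 Wnt genes, the 10 included, 88 were tested, of which 11 rose and 8 fell (9 and 6 of them over 2-fold). These are counts near the background, since 11.1% of all tested genes rose and 8.22% fell. Their median log2 fold change was 0.01. Without the 10 genes, 9 of 79 rose and 7 fell. On leaving out each library in turn, the DEGs named beside the 10 genes held unequally. Fzd3 and Frzb were DEGs in 6 of 6 fits, Rspo1, Lgr5, Nkd2 and Ccnd1 in 5 (not without Nf1fl/fl;DhhCre library 1), Cxxc4 in 3, Trabd2b and Apc2 in 2, Fzd2 and Dact1 in 1 and Wnt7a in none.

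Of 14 tested Frizzled receptors and co-receptors, out of 16, 1 rose and 3 fell (median log2 fold change -0.61), beside 11.1% and 8.22% of all tested genes. Fzd3, a receptor known for axon guidance, was at 122, 104 and 85.8 CPM in Nf1fl/fl;DhhCre tissue and at 261, 282 and 317 CPM in the double knockout (log2 fold change 1.47 with an SE of 0.16, adjusted p = 0.00764), and was a DEG in every fit that left out a library. Fzd2 was at 43.3, 73.8 and 36.8 CPM against 24.5, 14.6 and 22.1 CPM (log2 fold change -1.29, SE 0.32, adjusted p = 0.0339). Fzd1 (-0.87, adjusted p = 0.0359) and the co-receptor Lrp5 (-0.80, adjusted p = 0.0212) fell by less than 2-fold and are named after their values were seen. In all, 10 of the 14 had a lower fitted level in the double knockout, as did 7658 of the 15652 genes tested. Fzd3 rose as the DRG neuron markers did, and the part of neurons in its level was not tested.

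Of 8 tested ligands, out of 19, only Wnt7a passed, beside 11.1% of all tested genes that rose. Wnt7a, which is below the level set for naming and is named after its values were seen, had 1, 1 and 4 counts in Nf1fl/fl;DhhCre tissue and 23, 10 and 17 counts in the double knockout (log2 fold change 3.15 with an SE of 0.83, adjusted p = 0.0393), a low level at which the call was lost whichever library was left out. Its counts reached the 10 of the low-count filter only in the double knockout. Being tested at all thus depended on the group in which Wnt7a is high, and nothing is drawn from its call. Among 3 tested genes of ligand processing none rose and 1 fell, beside 8.22% of all tested genes that fell. This was Trabd2b, a protease that inactivates Wnt, which fell from 91.3, 66.0 and 97.6 CPM to 56.0, 27.0 and 34.6 CPM (log2 fold change -1.16, SE 0.28, adjusted p = 0.0300).

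In the cytoplasm, the mRNA of beta-catenin itself did not pass the test. Ctnnb1 was at 279, 268 and 304 CPM in Nf1fl/fl;DhhCre tissue and at 284, 274 and 297 CPM in the double knockout, with groups that overlap (log2 fold change 0.01, SE 0.11, 95% interval -0.24 to 0.26, adjusted p = 0.970). Apc, of the destruction complex, was at 468, 502 and 458 CPM against 677, 680 and 901 CPM (log2 fold change 0.65, SE 0.14, adjusted p = 0.0229), a rise of less than 2-fold. Its homolog Apc2, best known from neurons, had means of 17.5 ± 4.18 and 47.7 ± 20.3 CPM (SD, n = 3 each), with no overlap (log2 fold change 1.39, SE 0.35, adjusted p = 0.0339). With Gsk3b (0.57, adjusted p = 0.0432, named after its value was seen), 3 of the 18 tested genes of the core rose and none fell (median 0.11), beside 11.1% and 8.22% of all tested genes.

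Of the 9 tested intracellular inhibitors, 2 rose (Nkd1 and Cxxc4) and 2 fell (Nkd2 and Dact1), beside the same 11.1% and 8.22% of all tested genes, with a median log2 fold change of 0.01. Cxxc4, which binds Dishevelled, was at 2.64, 6.20 and 5.32 CPM in Nf1fl/fl;DhhCre tissue and at 12.4, 16.3 and 20.8 CPM in the double knockout (log2 fold change 1.85 with an SE of 0.37, adjusted p = 0.0188). Dact1, another partner of Dishevelled, was at 79.6, 146 and 56.0 CPM against 36.6, 25.8 and 39.1 CPM (log2 fold change -1.38, SE 0.38, adjusted p = 0.0427).

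Of 15 tested Wnt target genes, out of 18, Nkd1 and Lgr5 rose, Wif1 and Ccnd1 fell and 11 did not pass (median log2 fold change -0.00), counts near the 11.1% and 8.22% of all tested genes that rose and fell. Ccnd1, which encodes cyclin D1 and responds to many growth signals, was at 1103, 811 and 1438 CPM in Nf1fl/fl;DhhCre tissue and at 398, 213 and 287 CPM in the double knockout (log2 fold change -1.91 with an SE of 0.28, adjusted p = 0.0103). Every double knockout library was below every Nf1fl/fl;DhhCre library. Of the 5 tested targets among the 10 genes, Nkd1 thus rose and Wif1 fell, while Axin2 had a higher and Tcf7 a lower fitted level that did not pass, and Lef1 had equal means.

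**Figure D4:**
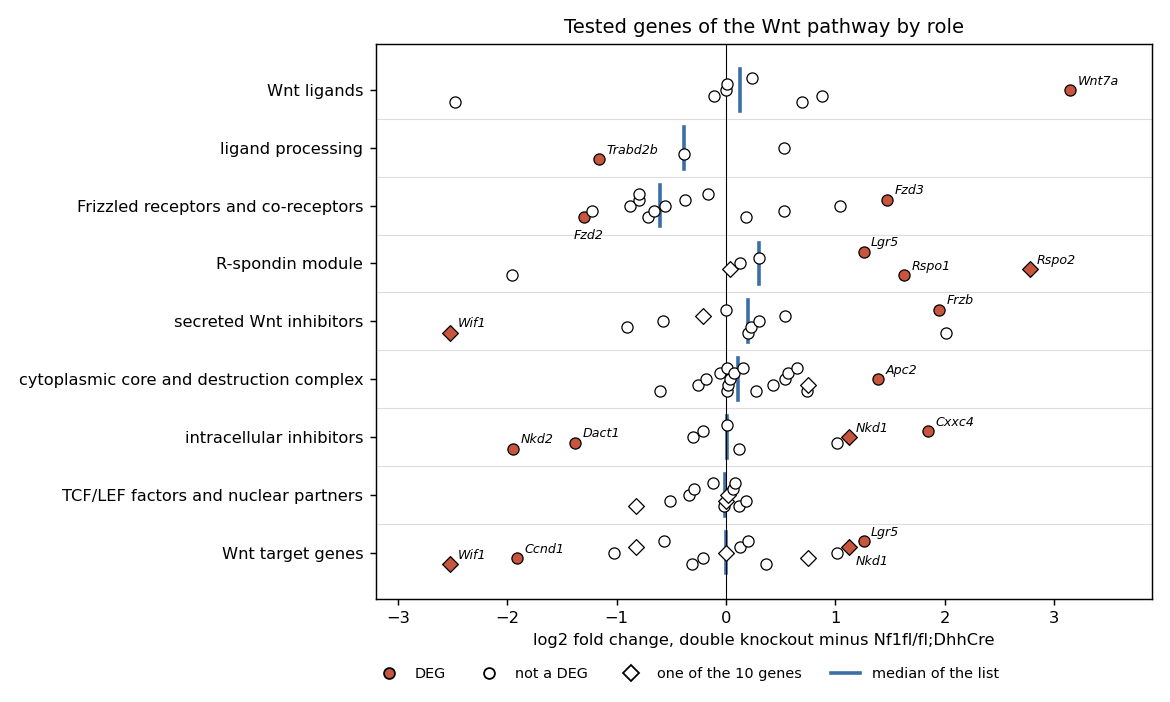
Log2 fold change (double knockout minus Nf1fl/fl;DhhCre) of each tested gene in the Wnt lists, by role, with DEGs filled and named, diamonds for the 10 genes and a blue bar for the median of each list. A gene may stand in several lists. DEGs lie on both sides of 0 in the lists of receptors, secreted inhibitors, intracellular inhibitors and targets.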

How the data were processed

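The authors amplified total RNA with a NuGEN Ovation kit, made Nextera XT libraries and aligned read pairs to mm10 with TopHat. The deposited values are raw counts of reads per gene, made by the authors with featureCounts; the annotation, the strand setting and the handling of multi-mapping reads are not given in the sources used here. For 4 libraries the mouse number in the title is not that of the count file, although the genotype is the same, so the genotype stands but the sequencing run (1980 for 1 double knockout library, 1954 for the others) may belong to another library of that group. Replicate numbers follow the order of the labels and pair no mice. Libraries of one group differed by more than counting error (chi-square per degree of freedom 21.7 to 133).

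Low genes were removed by filterByExpr (at least 10 counts, and 15 in total), libraries were TMM-scaled, and limma-voom was fitted on genotype alone (R 4.3.3, edgeR 4.0.16, limma 3.58.1), with Benjamini-Hochberg adjustment over all tested genes. Exact intervals of counting error were not used; a floor of 3 counts was given for Notum. CPM used the TMM factors. All 10 genes are given in full; the other Wnt genes named are DEGs whose mean log2 CPM over the libraries was 1 or more, together with Ctnnb1 and Apc; Wnt7a, Fzd1, Lrp5, Gsk3b, Dkk3 and Lgr6 fall outside this rule and were added after their values were seen. Genes, Wnt lists and marker lists were chosen with earlier results of these data known. Levels per kilobase used merged exons of GENCODE M21 (GRCm38), which may differ from the annotation counted on. Promoters are from RefSeq (GRCm38.p6). The comparison was repeated with DESeq2 1.42.0 and its size factors, with edgeR's quasi-likelihood test, with sample quality weights, with library size only, with filters of CPM above 1 (in 3 libraries or more) or of any count above 0, and without each library in turn. Plots used matplotlib 3.10.9 (Python 3.11.15).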

Additional observations from a re-analysis of the deposited data

How the results depend on the processing

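The number of DEGs among the 9 tested genes was 3 in limma-voom and 1 (Nkd1) in edgeR's quasi-likelihood test, and 1 (Rspo2) without both libraries with muscle transcripts, an alternative chosen after the data were seen. On the adjusted p alone the counts were 3, 1 and 1. Leaving out each library gave 0 to 2 DEGs, or 0 to 3 on the adjusted p alone. The cause was not tested. Over the Wnt lists there were 15 DEGs, and 2 to 13 on leaving out a library, with 19 genes on the adjusted p alone and 2 to 18 on leaving out a library. Over all genes there were 2096 DEGs, and 362 to 2285 on leaving out a library, the lowest without Nf1fl/fl;DhhCre library 1. The other settings gave 3 DEGs among the 9 genes. Fitted changes near 0 turned in sign. Lef1, at -0.0018 on the log2 scale, was at 0.0015 in edgeR and 0.10 without the libraries with muscle transcripts, and at -0.21 to 0.13 on leaving out each library. With library size only, which moved the median of all genes by -0.077, Tcf7l2 was at -0.056, Rspo3 at -0.033 and Ctnnb1 at -0.070. Ctnnb1 was also at -0.0041 in DESeq2, -0.0018 with DESeq2 size factors, -0.0020 with every gene and -0.0011 with quality weights. On leaving out each library, Rspo3 ranged from -0.55 to 0.55, Ctnnb1 from -0.019 to 0.097 and Nf1 from -0.18 to 0.043. No paired analysis was possible because the numbers used here only follow the order of the labels, which number no replicates and pair no mice. Depth limits Notum, Rspo3 and Wnt7a, which had at most 30 counts in any library.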
